A study of Homo sapiens with 9 samples.

Results

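A group of 4 human miRNA hairpins was examined out of 1485 in the count table, 1 on chromosome 1 (hsa-mir-4421) and 3 on chromosome 16 (hsa-mir-3677, hsa-mir-940 and hsa-mir-4717). hsa-mir-4421 and, beside it in rank, hsa-mir-3677 were chosen by their fold change in HEK293E libraries treated with siRNA against ERH, where they fell most, so their values in that comparison are a description and carry no test. hsa-mir-940 and hsa-mir-4717 were taken because they lie beside hsa-mir-3677, whatever their change. All 4 passed the minimum for testing, an average of 10 counts per HEK293E library, as did 773 of all hairpins. The next hairpin on chromosome 1, hsa-mir-6500, is given beside hsa-mir-4421 for the same reason of position.

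The small RNAs came from HEK293E cells, a line derived from human embryonic kidney, and from K562, a human leukaemia line with erythroid features. In HEK293E, siGFP, siControl and siERH-3 were each used in 2 replicates and siERH-5 only in replicate 2, with siRNA added on days 0 and 3 and RNA taken on day 5. K562 cells received siGFP or siERH-5 by electroporation in 1 library each and were harvested after 4 days. Here the 4 HEK293E libraries with siGFP or siControl are the controls, and the 3 with siERH-3 or siERH-5 are the siERH libraries. Each of these is bulk RNA from 1 line, in which fewer cells and less RNA per cell cannot be told apart. Nothing in the labels says whether replicates were separate cultures, so p-values measure only the spread between these libraries. The level of ERH itself was not analysed here, since the table holds miRNA hairpins.

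A miRNA is cut from a folded primary transcript by the nuclear Microprocessor, formed by the RNase DROSHA and its partner DGCR8, and then trimmed by DICER in the cytoplasm. The short product guides Argonaute to target RNAs, mainly through its seed, the bases near its 5′ end. ERH is a small conserved nuclear protein known to bind DGCR8, and it is known for helping Microprocessor cut some hairpins that are poor substrates when a better hairpin lies on the same transcript. Neighbouring hairpins are set beside one another here because they may be transcribed together, which was not measured. Since one hairpin may affect how another is cut, a neighbour is not a fixed reference.

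The mature sequences show what each hairpin delivers, with the seed (bases 2 to 8 from the 5′ end) in capitals, as RefSeq gives them on GRCh38.p14. All 4 hairpins and hsa-mir-6500 were matched there by name.
hsa-miR-4421: aCCUGUCUguggaaaggagcua
hsa-miR-3677-5p: cAGUGGCCagagcccugcagug
hsa-miR-3677-3p: cUCGUGGGcucuggccacggcc
hsa-miR-940: aAGGCAGGgcccccgcucccc
hsa-miR-4717-5p: uAGGCCACagccacccaugugu
hsa-miR-4717-3p: aCACAUGGguggcuguggccu
hsa-miR-6500-5p: aGGAGCUAuccacuccaggugucc
hsa-miR-6500-3p: aCACUUGUugggaugaccugc
No seed was shared among these mature miRNAs. Among 2545 mature sequences searched, the seed of miR-4421 occurred also in miR-5699-3p, that of miR-940 in miR-6808-5p and that of miR-6500-5p in miR-4633-3p.

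The hairpins are printed because the results turn on neighbours that behaved differently. Capitals mark the mature miRNAs.
hsa-mir-4421: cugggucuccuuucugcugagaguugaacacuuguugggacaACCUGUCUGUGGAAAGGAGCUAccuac
hsa-mir-6500: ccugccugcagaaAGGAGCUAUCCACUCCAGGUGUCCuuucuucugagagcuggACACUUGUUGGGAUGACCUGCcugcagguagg
hsa-mir-3677: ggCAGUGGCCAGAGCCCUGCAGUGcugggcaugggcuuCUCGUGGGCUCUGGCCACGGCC
hsa-mir-940: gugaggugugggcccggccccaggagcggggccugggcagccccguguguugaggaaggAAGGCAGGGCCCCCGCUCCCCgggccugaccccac
hsa-mir-4717: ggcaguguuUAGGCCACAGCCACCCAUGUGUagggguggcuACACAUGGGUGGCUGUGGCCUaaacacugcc
The count table gives 1 value per hairpin, so the arms printed in capitals were not measured apart.

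The hairpins lie in 2 places on the plus strand of GRCh38, by the GENCODE release 29 annotation. hsa-mir-4421 is at chr1:51059837-51059905, and hsa-mir-6500 follows at chr1:51060018-51060103, after a gap of 112 nt. GENCODE lists no other gene over either of them on either strand. hsa-mir-3677 is at chr16:2270713-2270772, within an intron of AC009065.4, a lincRNA. hsa-mir-940 is at chr16:2271747-2271840, after a gap of 974 nt, and overlaps an exon of the same lincRNA, which RefSeq calls MIR3677HG and places at chr16:2268663-2273072. hsa-mir-4717 is at chr16:2274620-2274691, a further 2779 nt on, with no annotated gene over it.

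The libraries held 2609929 to 3320017 hairpin counts. For cell identity, 6 of 6 blood miRNA markers were higher in both K562 libraries than in all HEK293E libraries, with a summed level of 144266 to 149893 CPM of the library total against 2028 to 3144. Of 5 epithelial markers, 4 were higher in all HEK293E libraries, at a sum of 428 to 679 against 228 to 321. Unless said otherwise, CPM (counts per 1000000) below is after TMM scaling, which sets libraries to a common level over most hairpins.

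hsa-mir-4421 was counted 324 and 138 times with siGFP and 258 and 170 times with siControl, in replicates 1 and 2. With siERH-3 it was counted 8 times (95% Poisson interval 3.45 to 15.8) and 10 times, and with siERH-5 it was counted 14 times. All 3 siERH libraries lay far below all 4 controls. In CPM the controls held 92.5 and 58.2 with siGFP and 90.6 and 64.6 with siControl. The siERH libraries held 2.37 and 3.05 CPM with siERH-3 and 3.97 CPM with siERH-5. The mean went from 76.5 ± 17.6 (SD, n = 4) to 3.13 ± 0.806 CPM (SD, n = 3), or 4.10% of control, a log2 fold change of -4.59 ± 0.31 (SE). This was the lowest of 773 values and the reason for its choice.

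hsa-mir-6500, its neighbour 112 nt downstream, had 73 and 22 counts with siGFP, 68 and 47 with siControl, 62 and 48 with siERH-3 and 71 with siERH-5. The siERH libraries lay inside the range of the controls, and the lowest library was a control. Its mean was 18.0 ± 6.29 CPM (SD, n = 4) in controls and 17.7 ± 2.82 CPM (SD, n = 3) with siERH. The log2 fold change was -0.03 ± 0.30 (SE), with a 95% interval of -0.69 to 0.63 and an adjusted p of 0.946 by edgeR's quasi-likelihood F test (Benjamini-Hochberg adjustment). Its sign changed in 7 of 13 alternative analyses, none of which called it.

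Counts of the pair within a library do not depend on how libraries are scaled. hsa-mir-4421 made up 81.6% and 86.2% of the pair's counts with siGFP and 79.1% and 78.3% with siControl. It made up 11.4% and 17.2% with siERH-3 and 16.5% with siERH-5. The log2 ratio of hsa-mir-4421 to hsa-mir-6500, with 1 added to each count, averaged 2.12 ± 0.34 (SD, n = 4) in controls and -2.41 ± 0.35 (SD, n = 3) with siERH. The difference of -4.53 is a 23.0-fold change of the ratio, and it has no test because hsa-mir-4421 was chosen for this contrast.

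**Figure D1:**
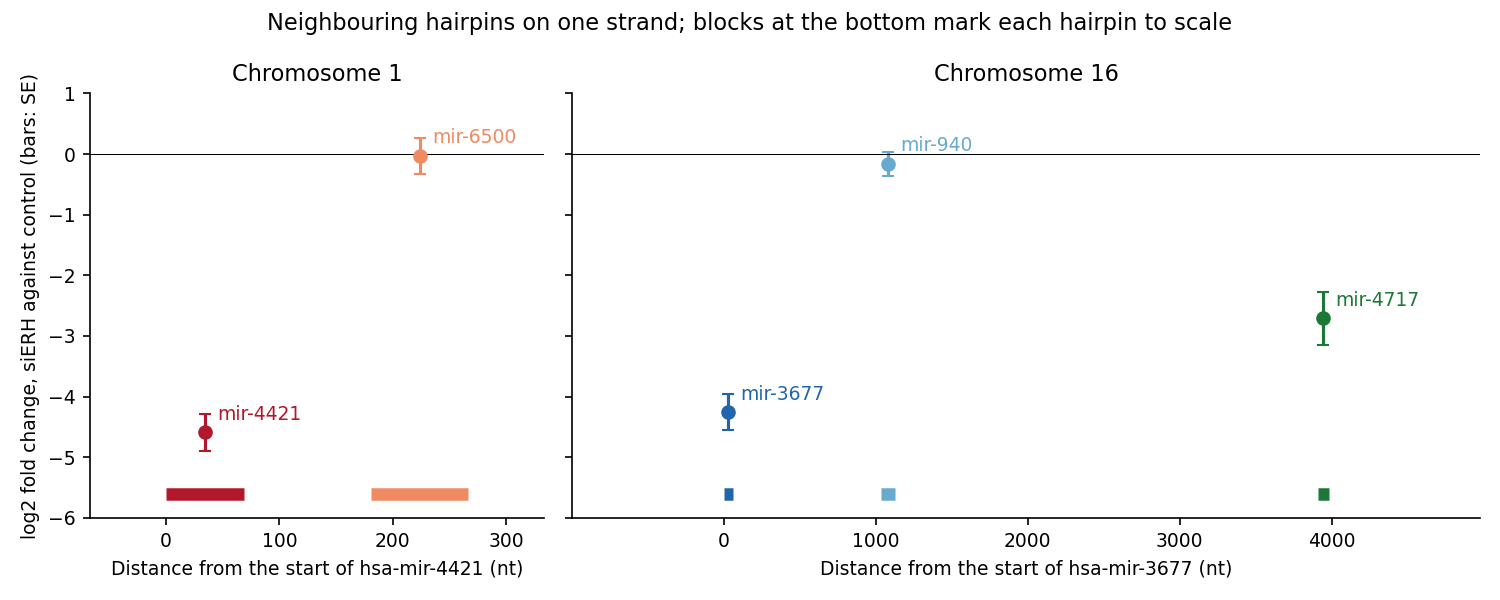
Log2 fold change of siERH against control in HEK293E (bars, SE) by distance in nt along chromosome 1 from the start of hsa-mir-4421 and along chromosome 16 from the start of hsa-mir-3677, with blocks showing each hairpin to scale. hsa-mir-6500 and hsa-mir-940 lie near 0, at -0.03 and -0.16, beside hairpins at -4.59, -4.26 and -2.71.

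The sequences of this pair are related. Bases 4 to 51 of hsa-mir-4421 align to bases 31 to 78 of hsa-mir-6500 without a gap, and 41 of 48 bases are identical (85.4%). The aligned stretch covers the whole of miR-6500-3p, the end of miR-6500-5p and the start of miR-4421. miR-6500-3p met its nearest match in another of 1559 RefSeq hairpins in hsa-mir-4421, with 3 mismatches in 21 bases. miR-4421 met its nearest match in hsa-mir-6500, with 4 mismatches in 22 bases. In that match the first base of miR-4421 lies just before the start of the hairpin and was counted as a mismatch. The other printed arms had at least 6 mismatches to any other hairpin, counting ungapped matches only. How reads with several matches were placed is not given in the sources used here.

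hsa-mir-3677 was counted 257 and 166 times with siGFP and 240 and 158 times with siControl, in replicates 1 and 2. It was counted 15 and 7 times with siERH-3 and 16 times with siERH-5. The groups did not overlap, and the lowest siERH library, at 7 counts, has a Poisson interval of 2.81 to 14.4. In CPM the controls held 73.4 and 69.96 with siGFP and 84.3 and 60.0 with siControl. The siERH libraries held 4.44 and 2.13 CPM with siERH-3 and 4.54 CPM with siERH-5. The mean went from 71.9 ± 9.99 (SD, n = 4) to 3.71 ± 1.36 CPM (SD, n = 3), or 5.16% of control, a log2 fold change of -4.26 ± 0.30 (SE). It was second of 773.

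The hairpin just outside the choice was hsa-mir-3685, at a log2 fold change of -4.21 ± 0.68 (SE). It rested on far fewer counts, 25, 13, 26 and 7 in the controls and 0, 2 and 1 in the siERH libraries. After it came hsa-mir-212 at -3.24.

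hsa-mir-940, 974 nt downstream of hsa-mir-3677, had 2364 and 1211 counts with siGFP and 2212 and 1318 with siControl. It had 2030 and 1859 counts with siERH-3 and 1723 with siERH-5. In CPM the controls held 675, 510, 777 and 501, and the siERH libraries held 601, 567 and 489. The groups overlapped. Of the 3 siERH libraries, 2 were below both controls of their own replicate and 1 was above both. Its mean was 616 ± 134 CPM (SD, n = 4) in controls and 552 ± 57.5 CPM (SD, n = 3) with siERH. The log2 fold change of -0.16 ± 0.20 (SE), with a 95% interval of -0.59 to 0.28, did not pass edgeR's quasi-likelihood F test (Benjamini-Hochberg adjustment) (adjusted p = 0.562). That sign changed in 3 of 14 alternatives, and none called it.

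hsa-mir-4717, further downstream, was low everywhere. It had 16 and 10 counts with siGFP and 24 and 18 with siControl, against 2 and 3 with siERH-3 and 4 with siERH-5. Every siERH library lay below every control, although the Poisson interval of the lowest, 0.242 to 7.22 counts, is wide. The control CPM values were 4.57, 4.21, 8.43 and 6.84, and the siERH values were 0.593, 0.91 and 1.14. It fell from 6.01 ± 1.99 (SD, n = 4) to 0.881 ± 0.273 CPM (SD, n = 3), or 14.7% of control. The log2 fold change was -2.71 ± 0.44 (SE), with a 95% interval of -3.67 to -1.75 and an adjusted p of 0.00103 by edgeR's quasi-likelihood F test (Benjamini-Hochberg adjustment).

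Of the 2 neighbours taken by position on chromosome 16, 1 was called lower, hsa-mir-4717, which passed the count minimum only through the controls. Across all 773 hairpins 16.2% were called lower and 23.8% higher. Groups in which every siERH library was below every control were found for 19.1% of hairpins. A further 6 hairpins of the table lie within 500 kb of hsa-mir-3677, and none of the 3 with enough counts was called by edgeR's quasi-likelihood F test (Benjamini-Hochberg adjustment). hsa-mir-6511b-1 had a log2 fold change of -0.13 (adjusted p = 0.660), hsa-mir-3180-5 one of 0.33 (adjusted p = 0.433) and hsa-mir-6768 one of 0.16 (adjusted p = 0.677). hsa-mir-6511b-1 and hsa-mir-3180-5 have near-identical copies elsewhere, so their counts are uncertain. In replicate 2 alone hsa-mir-3180-5 was called higher, at 1.09 (adjusted p = 0.0125). hsa-mir-1225, hsa-mir-6767 and hsa-mir-3178 were below the count minimum.

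**Figure D2:**
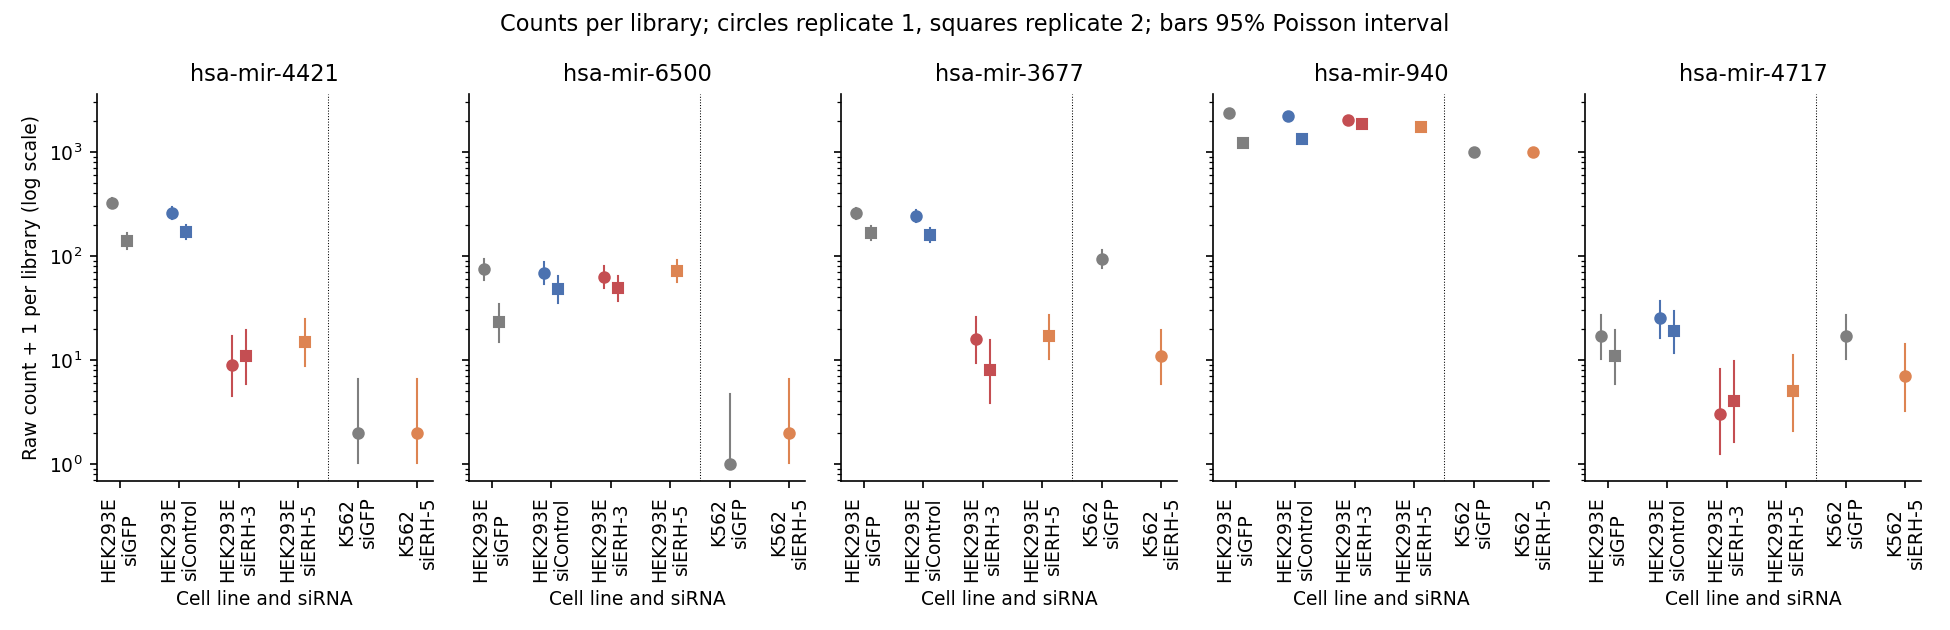
Raw count plus 1 on a log scale for each hairpin in each library, by cell line and siRNA, with circles for replicate 1, squares for replicate 2 and bars for the 95% Poisson interval. hsa-mir-3677, hsa-mir-4717 and hsa-mir-4421 are lower in all 3 siERH libraries of HEK293E than in its 4 controls, while hsa-mir-6500 and hsa-mir-940 overlap.

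**Figure D3:**
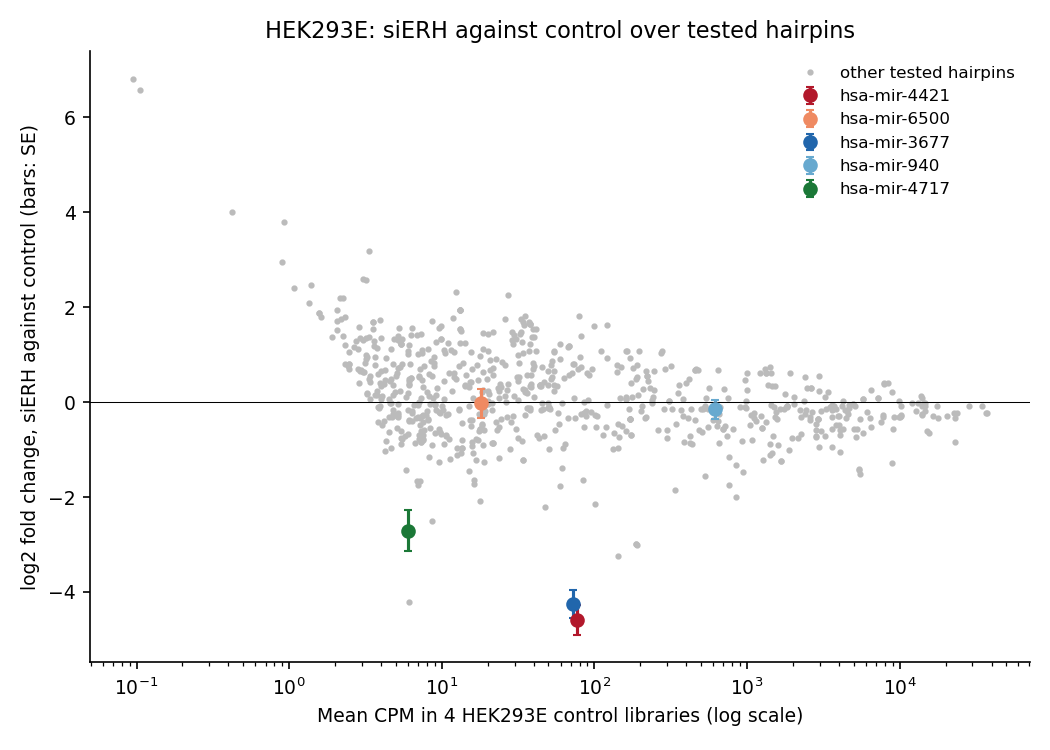
Log2 fold change of siERH against control (vertical axis) by mean CPM in the 4 HEK293E controls (log scale) for the 773 tested hairpins, with SE bars on the named ones. hsa-mir-4421 and hsa-mir-3677 are the lowest, at -4.59 and -4.26, and hsa-mir-4717 lies at -2.71 among hairpins of few counts.

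Against hsa-mir-940 in the same library, hsa-mir-3677 made up 9.81% and 12.1% of the counts of both with siGFP and 9.79% and 10.7% with siControl. It made up 0.733% and 0.375% with siERH-3 and 0.920% with siERH-5. The log2 ratio averaged -3.08 ± 0.16 (SD, n = 4) in controls and -7.29 ± 0.68 (SD, n = 3) with siERH. The difference of -4.21 is an 18.5-fold change of the ratio, given with no test because of how hsa-mir-3677 was chosen. Leaving out single libraries gave -4.48 to -3.83.

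For hsa-mir-4717 against hsa-mir-940, with 1 added to each count, the log2 ratio averaged -6.62 ± 0.43 (SD, n = 4) in controls and -8.90 ± 0.49 (SD, n = 3) with siERH. The difference of -2.28 is a 4.84-fold change. No test was run on it, since 1 siERH library had only 2 counts of hsa-mir-4717. With 5 added to each count the difference was -1.56, a shift of over 1.5 times in the fold. The log2 ratio of hsa-mir-3677 to hsa-mir-4717 was 3.63 ± 0.47 (SD, n = 4) in controls and 2.04 ± 0.84 (SD, n = 3) with siERH. It is a description only, since hsa-mir-3677 was chosen by its fall in these libraries and hsa-mir-4717 had 2 to 4 counts there.

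**Figure D4:**
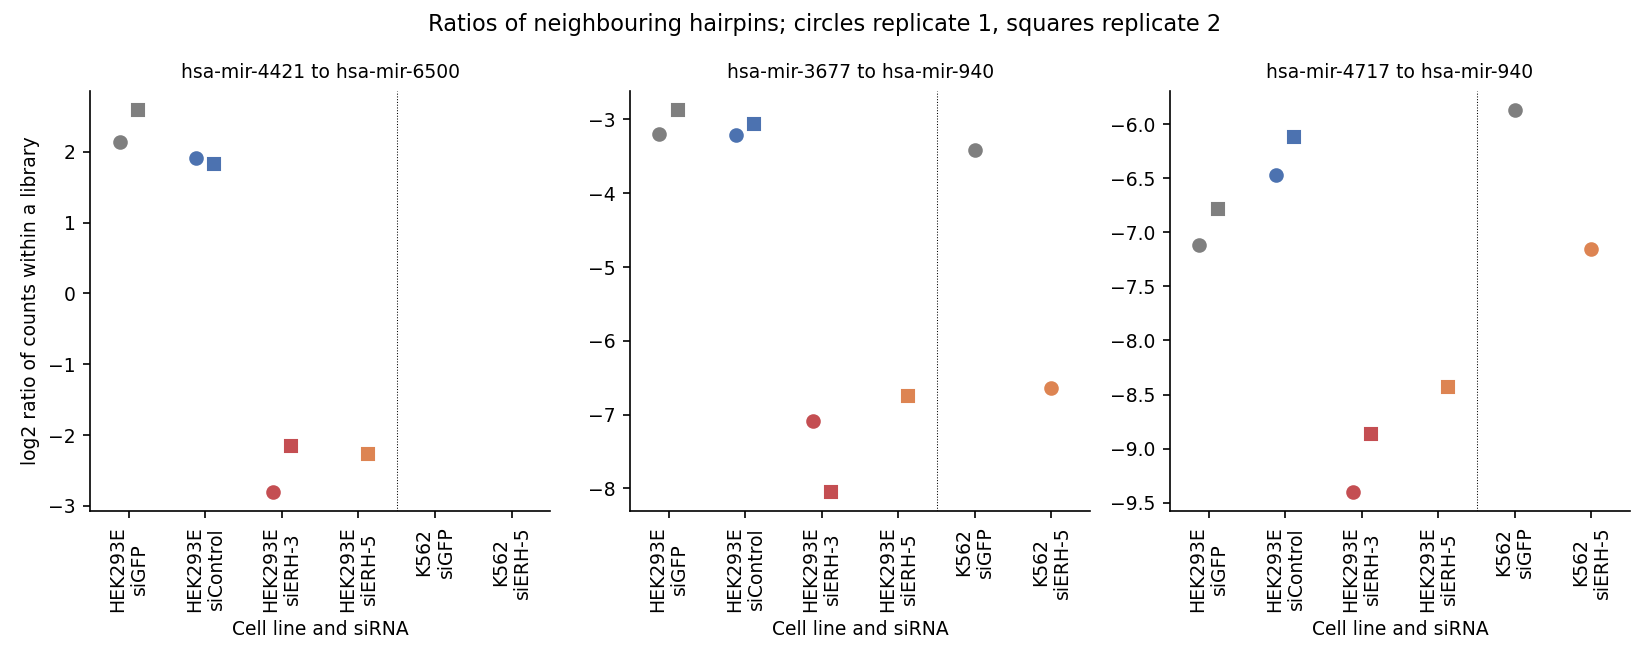
Log2 ratio of counts of 2 neighbouring hairpins within each library, by cell line and siRNA, with circles for replicate 1 and squares for replicate 2 (1 added to each count for the ratios with hsa-mir-6500 and hsa-mir-4717). All 3 ratios are lower in every siERH library of HEK293E than in every control, and no K562 point is drawn for hsa-mir-4421 to hsa-mir-6500, where K562 counts are 0 or 1.

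Both siRNAs against ERH were present in replicate 2, where they share their control libraries. Relative to those controls, on the log2(CPM + 1) scale, hsa-mir-4421 stood at -3.95 with siERH-3 and -3.65 with siERH-5. hsa-mir-3677 stood at -4.40 and -3.57, and hsa-mir-4717 at -1.77 and -1.61. For hsa-mir-940 the values were 0.16 and -0.05, and for hsa-mir-6500 they were 0.10 and 0.54. In replicate 1, siERH-3 against its own controls gave -4.78 for hsa-mir-4421, -3.87 for hsa-mir-3677, -0.27 for hsa-mir-940, -2.23 for hsa-mir-4717 and -0.27 for hsa-mir-6500. With 1 library of siERH-5, a difference between the siRNAs could not be tested.

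The 2 control siRNAs were compared to see how these hairpins vary without ERH siRNA. None of 730 hairpins (0.0%) was called between siControl and siGFP by edgeR's quasi-likelihood F test (Benjamini-Hochberg adjustment). An unadjusted p under 0.05 was found for 24 and DESeq2 called 4. A fit that blocked on replicate called 133, and neither the 4 members nor hsa-mir-6500 were among them. The log2 fold changes were 0.02 ± 0.35 (SE) for hsa-mir-4421, 0.00 ± 0.29 for hsa-mir-3677, 0.09 ± 0.32 for hsa-mir-940 and 0.78 ± 0.38 for hsa-mir-4717, with adjusted p-values of 0.991, 0.997, 0.959 and 0.959. hsa-mir-6500 was at 0.43 ± 0.45 (adjusted p = 0.959).

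Replicate 1 controls were above replicate 2 controls for each of them. The ratio of mean CPM was 1.49 for hsa-mir-4421, 1.65 for hsa-mir-6500, 1.21 for hsa-mir-3677, 1.44 for hsa-mir-940 and 1.18 for hsa-mir-4717. Over 771 hairpins the median ratio was 1.02 and the 5th to 95th percentiles were 0.527 to 2.01, and the ratios above lie inside that span.

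K562 was not used to choose the hairpins, and it holds 1 library per siRNA, so its values have no replicate check and no test. hsa-mir-3677 was counted 93 times under siGFP and 10 times under siERH-5, or 39.2 and 2.73 CPM. The log2 ratio of CPM plus 1 was -3.43, the lowest of the 646 hairpins that averaged 10 counts or more in K562. Without the added 1 it was -3.84, with a counting interval of -4.95 to -2.90. The next lowest were hsa-mir-7974 at -2.42, hsa-mir-134 at -2.38 and hsa-mir-212 at -2.22.

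hsa-mir-940 had 991 and 998 counts in K562, or 418 and 273 CPM, a log2 ratio of -0.62. Without the added 1 its counting interval was -0.75 to -0.49, so under TMM it too was lower beyond counting error alone. That interval leaves out the spread between libraries. In CPM the K562 change was 1.53-fold, while HEK293E controls of replicates 1 and 2 differed 1.44-fold for this hairpin. Scaled by library totals the K562 log2 ratio was -0.33. Over all 646 hairpins the median moved from 0.11 under TMM to 0.37 under library totals, so hsa-mir-940 was below the median by a like amount both ways. hsa-mir-4717 had 16 and 6 counts, or 6.75 and 1.64 CPM, a log2 ratio of -1.55. Without the added 1 its counting interval was -3.68 to -0.61. With 5 CPM added in place of 1 it was -0.82, which is less than 2-fold. On the CPM plus 1 scale hsa-mir-3677 and hsa-mir-4717 were at least 2-fold lower and hsa-mir-940 was not, against 6.81% of the 646 hairpins, while 10.1% were at least 2-fold higher and no member was.

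The share of hsa-mir-3677 in its pair with hsa-mir-940 went from 8.58% (95% Clopper-Pearson interval 6.98 to 10.4%) to 0.992% (0.477 to 1.82%) in K562. These intervals do not overlap, and they cover counting error only. The log2 ratio of the pair went from -3.41 to -6.64, a 9.37-fold change. hsa-mir-4717 to hsa-mir-940 went from -5.87 to -7.16. Whether the change of either pair differs in size between the 2 lines was not tested.

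hsa-mir-4421 had 1 count in each K562 library, and hsa-mir-6500 had 0 and 1, so a response to siERH-5 was not detectable there at this depth. A count of 0 allows up to 3 counts, or 1.15 CPM of the library total in K562 with siGFP and 0.904 with siERH-5.

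**Figure D5:**
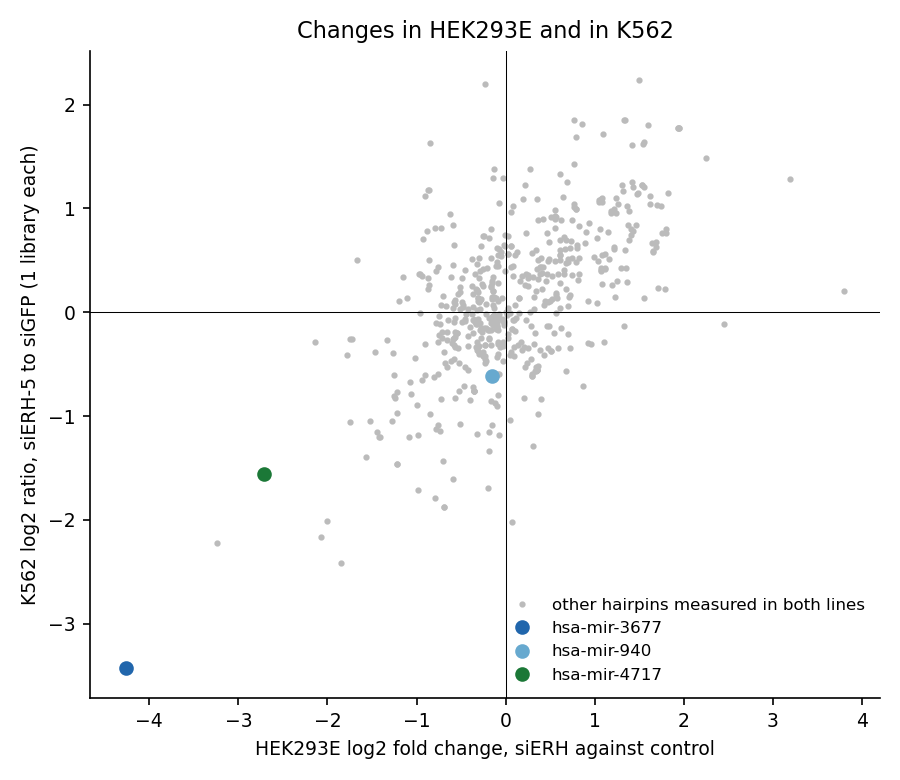
Log2 ratio of siERH-5 to siGFP in K562 (vertical axis, 1 library each) against log2 fold change of siERH against control in HEK293E (horizontal axis), 1 point per hairpin measured in both lines. hsa-mir-3677 is lowest on both axes, at -4.26 and -3.43, hsa-mir-4717 is at -2.71 and -1.55 and hsa-mir-940 at -0.16 and -0.62.

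The lines differ in the level of the chromosome 1 pair with siGFP alone. Scaled over all 9 libraries, hsa-mir-4421 was at 79.1 and 49.9 CPM in HEK293E and 0.72 CPM in K562, a ratio of 89.7 with a counting interval of 16.1 to 3541. hsa-mir-6500 was at 17.8 and 7.96 CPM in HEK293E and listed at 0 in K562. Taking that 0 as the floor of 3 counts, hsa-mir-6500 was at least 5.97-fold lower in K562 than the mean of both HEK293E libraries. Against replicate 1 alone that bound is 8.26-fold, and against replicate 2 alone it is 3.69-fold. For hsa-mir-3677 the levels were 62.8 and 60.1 CPM against 66.9 CPM, and for hsa-mir-940 577 and 438 CPM against 713 CPM. hsa-mir-4717 was at 3.91 and 3.62 CPM against 11.5 CPM. The direction for hsa-mir-3677 and hsa-mir-940 rests on the scaling, while hsa-mir-4717 was higher in K562 both ways. With library totals the log2 ratio of K562 to HEK293E went from 0.12 to -0.98 for hsa-mir-3677, from 0.49 to -0.65 for hsa-mir-940 and from 1.39 to 0.40 for hsa-mir-4717, while the median of 556 hairpins went from 0.14 to -0.92.

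The hairpins printed above do not share a shape. RNAfold was run on 1168 hairpins of the table that RefSeq holds, whose medians were 80 nt in length, 52.5% GC, a loop of 6 nt, 11 unpaired bases within the stem and a minimum free energy of -38.0 kcal/mol. hsa-mir-4421 is 69 nt and folded weakly, at -26.5 kcal/mol, with 11 unpaired bases in its stem and a loop of 8 nt. hsa-mir-3677 is short, at 60 nt, with 71.7% GC, -38.8 kcal/mol, 7 unpaired bases and a loop of 7 nt. Its RefSeq sequence ends at the last base of miR-3677-3p, so bases beyond that were not folded.

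hsa-mir-4717 had the most extreme fold. Its predicted stem held 33 base pairs without interruption and no unpaired base, and at -70.7 kcal/mol over 72 nt its energy per nt was the lowest of the 1168. hsa-mir-940 and hsa-mir-6500 lay between hsa-mir-3677 and hsa-mir-4717 in total energy, but per nt, at -0.563 and -0.548 kcal/mol, they were weaker than hsa-mir-3677 at -0.647. They had more unpaired bases in the stem than any of the other 3, with 21 for hsa-mir-940 (94 nt, 76.6% GC, -52.9 kcal/mol) and 16 for hsa-mir-6500 (86 nt, -47.1 kcal/mol). They are also the longest, and as a share of length the 2 were not set apart. Paired bases made up 68.1% of hsa-mir-940 and 76.7% of hsa-mir-6500, against 69.6% of hsa-mir-4421, 76.7% of hsa-mir-3677 and 91.7% of hsa-mir-4717. UGU, a motif known to favour Microprocessor cleavage near the apical loop, was present in the loop or within 3 nt of it in hsa-mir-4421 and hsa-mir-940. It was absent there from hsa-mir-3677, hsa-mir-4717 and hsa-mir-6500, and 27.4% of 1138 hairpins with a single predicted loop held it. The motif was read on the RNA strand only, and a match or its absence is a description of these letters.

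Of the miRNAs that share a seed with those above, the hairpin of miR-5699-3p alone had enough counts to be tested. hsa-mir-5699 had 545 and 326 counts with siGFP and 459 and 275 with siControl, against 918 and 779 with siERH-3 and 739 with siERH-5. All siERH libraries lay above all controls, a pattern whose share over all hairpins was not counted here. Its log2 fold change was 0.78 ± 0.20 (SE), with a 95% interval of 0.33 to 1.23 and an adjusted p of 0.0115 by edgeR's quasi-likelihood F test (Benjamini-Hochberg adjustment). In the same fit 23.8% of the 773 hairpins were called higher, so a rise was common. Thus the seed CCUGUCU occurs in 1 hairpin that was far lower and in 1 that rose, and a part of the seed in either was not tested. The adjusted p was 0.0597 without siERH-3 replicate 1, where the log2 fold change was 0.70. Which arm of hsa-mir-5699 was counted is not separated in the table.

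The hairpins whose CPM followed each member most closely over the 7 HEK293E libraries were ranked by Pearson's r, as a description, since the libraries share replicates and the same ERH contrast. hsa-mir-181d (r = 0.993), hsa-mir-192 (r = 0.992) and the 3 copies of hsa-mir-124 (r = 0.991 each) were most like hsa-mir-4421. The copies of hsa-mir-124 held equal or nearly equal counts, so they are not independent. hsa-mir-192 (r = 0.996), hsa-mir-181d and hsa-mir-425 (r = 0.994 each) and both copies of hsa-mir-181b (r = 0.989 each) were most like hsa-mir-3677. Their log2 fold changes were smaller than those of the hairpins they followed, at -1.57 for hsa-mir-192, -1.47 for hsa-mir-181d, -1.53 for hsa-mir-425 and -3.01 for hsa-mir-124-3.

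hsa-mir-4421 and hsa-mir-3677 had r = 0.987 with each other. Both were chosen for their falls in these same libraries, so a high r was built in by the choice. hsa-mir-4717 had r = 0.964 with hsa-mir-4421 and 0.947 with hsa-mir-3677, and its nearest hairpins were hsa-mir-7705 (r = 0.974), hsa-mir-5683 (r = 0.970), hsa-mir-96 and hsa-mir-192 (r = 0.969 each). hsa-mir-940 had r of 0.331 to 0.353 with the other 3 members and was most like hsa-mir-4741 (r = 0.981), hsa-mir-1250 (r = 0.931), the 2 copies of hsa-mir-3198 (r = 0.929 and 0.923) and hsa-mir-1908 (r = 0.923). hsa-mir-6500 had r = 0.036 with hsa-mir-4421.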

How the data were processed

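The authors deposited raw counts per miRNA hairpin and a table of RPM values, made from 18 to 30 nt RNA. Blank cells were read as 0. Per the submitters' processing notes, cutadapt, Bowtie2, bedtools and hg38 were used. Their versions, the annotation and the treatment of reads with several matches are not given in the sources used here. Whether reads were collapsed by molecule is also not given, so the intervals and floors account for counting error alone. Spike-in RNAs were not used here, so each change is relative to the other hairpins.

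Groups came from the sample titles. Counts were fitted with edgeR 4.0.16 in R 4.3.3 (TMM scaling, mean of at least 10 counts, quasi-likelihood test, Benjamini-Hochberg adjustment over all hairpins, adjusted p-value under 0.05), and the code was tested on simulated data. The SE is the fold change over the square root of F. Alternatives were DESeq2 1.42.0, limma 3.58.1 on log2(RPM + 1) of the deposited RPM, library totals, other filters, replicate 2 alone, a replicate block and single libraries left out. The titles give same-numbered HEK293E libraries a shared replicate number and do not say what they had in common. Their replicate deviations correlated at 0.480 to 0.692 between siRNAs, so replicate number was used as a block in 1 alternative. Libraries without replicates were compared as log2(CPM + 1), with exact intervals at 95%.

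The hairpins, lists and tests were chosen with earlier results of these data known. Named hairpins are the 4 members, the next largest fall, hairpins within 500 kb, the 5 with the highest r to each member, and tested seed sharers. Other tools were RNAfold 2.7.2, Python 3.11.15, scipy 1.17.1, Biopython 1.88, matplotlib 3.10.9, pandas 2.3.3 and numpy 2.4.6.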

Additional observations from a re-analysis of the deposited data

Results flagged for a closer look

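In hsa-mir-6768, a hairpin on chromosome 16 within 500 kb of hsa-mir-3677, 1 of the 4 HEK293E control libraries stood apart from the others, at 5.32 CPM. It was the only one of 12 sets of 4 control values to do so, and chance does this in about 5% of sets. The hairpin was not called between siERH and control.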

How the results depend on the processing

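hsa-mir-4421 and hsa-mir-3677 were lower under all 13 alternatives run on each. The log2 fold change of hsa-mir-4421 was -3.96 with limma and -4.06 in replicate 2 alone. That of hsa-mir-3677 was -3.74 with limma, and -4.42 to -3.98 with single libraries left out. hsa-mir-4717 was lower in all 10 alternatives that kept it, with adjusted p-values from 7.61e-05 to 0.00621. Its log2 fold change was -1.60 with limma. It was under the count minimum at a mean of at least 100 CPM, in replicate 2 alone and without either siControl library. Where the minimum of 10 counts applied and it was kept, it passed only through the controls.

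Counts of called hairpins moved more. The 125 lower hairpins became 67 with library totals, 45 at a mean of at least 100 CPM, where only 297 were tested, and 66 with limma, and 76 to 130 with single libraries left out. The lowest came without siERH-3 replicate 1 (77) and without siERH-3 replicate 2 (76). The 184 higher became 37 at a mean of at least 100 CPM. Over all 773 hairpins the median log2 fold change was -0.01, and 0.19 with library totals. Between siControl and siGFP, DESeq2 called 2 lower and 2 higher, as did the fit with no filter, and single libraries left out gave 0 to 1 higher. With the replicate block 61 were lower and 72 higher between these controls, and 159 lower and 217 higher with siERH. The block changed no call of the members or of the hairpins tested for their position or seed.

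With 5 added to each count, the ratio differences were -3.72 for hsa-mir-3677 to hsa-mir-940, -1.56 for hsa-mir-4717 to hsa-mir-940 and -4.08 for hsa-mir-4421 to hsa-mir-6500, whose alternatives were chosen after seeing the data. The first ranged from -4.48 to -3.83 with single libraries left out.

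In K562, hsa-mir-3677 was at -2.52 and hsa-mir-4717 at -0.82 with a pseudocount of 5 CPM, and hsa-mir-940 at -0.33 with library totals. The ratio of K562 to HEK293E with library totals was 0.40 for hsa-mir-4717, and it took the opposite sign for hsa-mir-3677, at -0.98, and hsa-mir-940, at -0.65. With a pseudocount of 5 CPM in replicate 2, siERH-3 and siERH-5 gave -3.04 and -2.89 for hsa-mir-4421, -3.29 and -2.87 for hsa-mir-3677, and -0.83 and -0.78 for hsa-mir-4717. With library totals hsa-mir-940 was at 0.42 and 0.25. The cause of these shifts was not tested. Low counts limit hsa-mir-4717, with 2 to 4 counts in siERH libraries, and hsa-mir-4421 in K562.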
